A study of Mus musculus with 35 samples.

Results

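The tricarboxylic acid (TCA) cycle members described here were 9 genes of mitochondrial cycle enzymes, namely Cs, Idh2, Idh3a, Idh3b, Ogdh, Suclg1, Sucla2, Fh1 and Mdh2. They were taken by gene symbol from the 55421 gene rows of a count table of interscapular brown adipose tissue (iBAT) RNA, and each symbol had a single row. iBAT came from male C57BL/6J mice aged 9 to 10 weeks. Controls stayed at room temperature (RT, 24 °C), and cold-exposed mice were kept in an incubator at 6 °C for 6 hours or for 1, 2, 3, 4 or 5 days. Each of these 7 groups held 5 mice, and each mouse gave its own library. Mice in the incubator were kept singly, in static cages with no nesting material, whereas controls remained in the colony, so the effects of temperature and of housing cannot be told apart. The tissue was bulk iBAT trimmed of the adjoining white fat, in which fewer cells of a type and less RNA per cell cannot be told apart.

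The TCA cycle oxidizes acetyl groups to carbon dioxide in the mitochondrial matrix and passes the electrons, as NADH and FADH2, to the respiratory chain. In brown adipocytes UCP1 lets protons return across the inner membrane without ATP synthesis, so that substrate oxidation yields heat, and cold raises this oxidation through sympathetic signals. Citrate synthase (Cs) starts the cycle. Isocitrate is oxidized by the NAD-dependent enzyme, a complex of Idh3a, Idh3b and Idh3g subunits, or by the NADP-dependent enzyme encoded by Idh2. Ogdh encodes the E1 subunit of the 2-oxoglutarate dehydrogenase complex, Suclg1 and Sucla2 subunits of succinyl-CoA ligase, Fh1 fumarase, and Mdh2 the malate dehydrogenase that regenerates oxaloacetate.

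Libraries held from 3846016 to 6047247 counts on genes, of which the 9 members together took from 0.586% to 0.805%, and the mitochondrial genome took from 33.6% to 46.2%. The 9 brown adipocyte markers all had counts in every group, among them Ucp1 and Cidea. Markers of other cells were present too. The 10 skeletal muscle markers summed to between 94.6 and 1171 CPM (counts scaled to the same library total) in RT mice, and to between 2.58 and 1364 CPM in cold-exposed mice. The summed CPM of 8 macrophage markers ran from 67.3 to 151 in RT mice and from 137 to 562 after 3 days. The 5 genes listed as white adipocyte markers (Lep, Retn, Cfd, Nnat and Agt) summed to between 1957 and 2894 CPM in RT mice. After 5 days they summed to between 278 and 651 CPM. The paper uses Nnat to mark early brown adipocyte differentiation, so this sum is not of white adipocyte markers alone. Endothelial markers summed to between 239 and 299 CPM in RT mice and between 482 and 566 CPM after 1 day, and erythroid markers to between 1826 and 2344 CPM in RT mice and between 2701 and 5005 CPM after 5 days. Stromal markers ran from 554 to 774 CPM in RT mice and from 359 to 962 CPM in cold-exposed mice. T and B cell markers did not exceed 8.8 CPM in any library. The part that such cells took in the results below was not tested, except where a value is given beside the result.

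Whether members differed between any of the 7 groups was asked first, with the quasi-likelihood test of edgeR (TMM factors) and Benjamini-Hochberg adjustment over all genes. A gene was called when the adjusted p was below 0.05. Of the 9 members 7 were called, whereas 60.4% of all 12077 genes tested were called in the same test. The adjusted p was 3.5e-09 for Idh3a, 1.0e-08 for Idh2, 1.2e-04 for Suclg1, 0.00165 for Fh1, 0.00335 for Idh3b, 0.00373 for Mdh2 and 0.022 for Sucla2. Cs and Ogdh were not called, with adjusted p of 0.298 and 0.202.

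**Figure D1:**
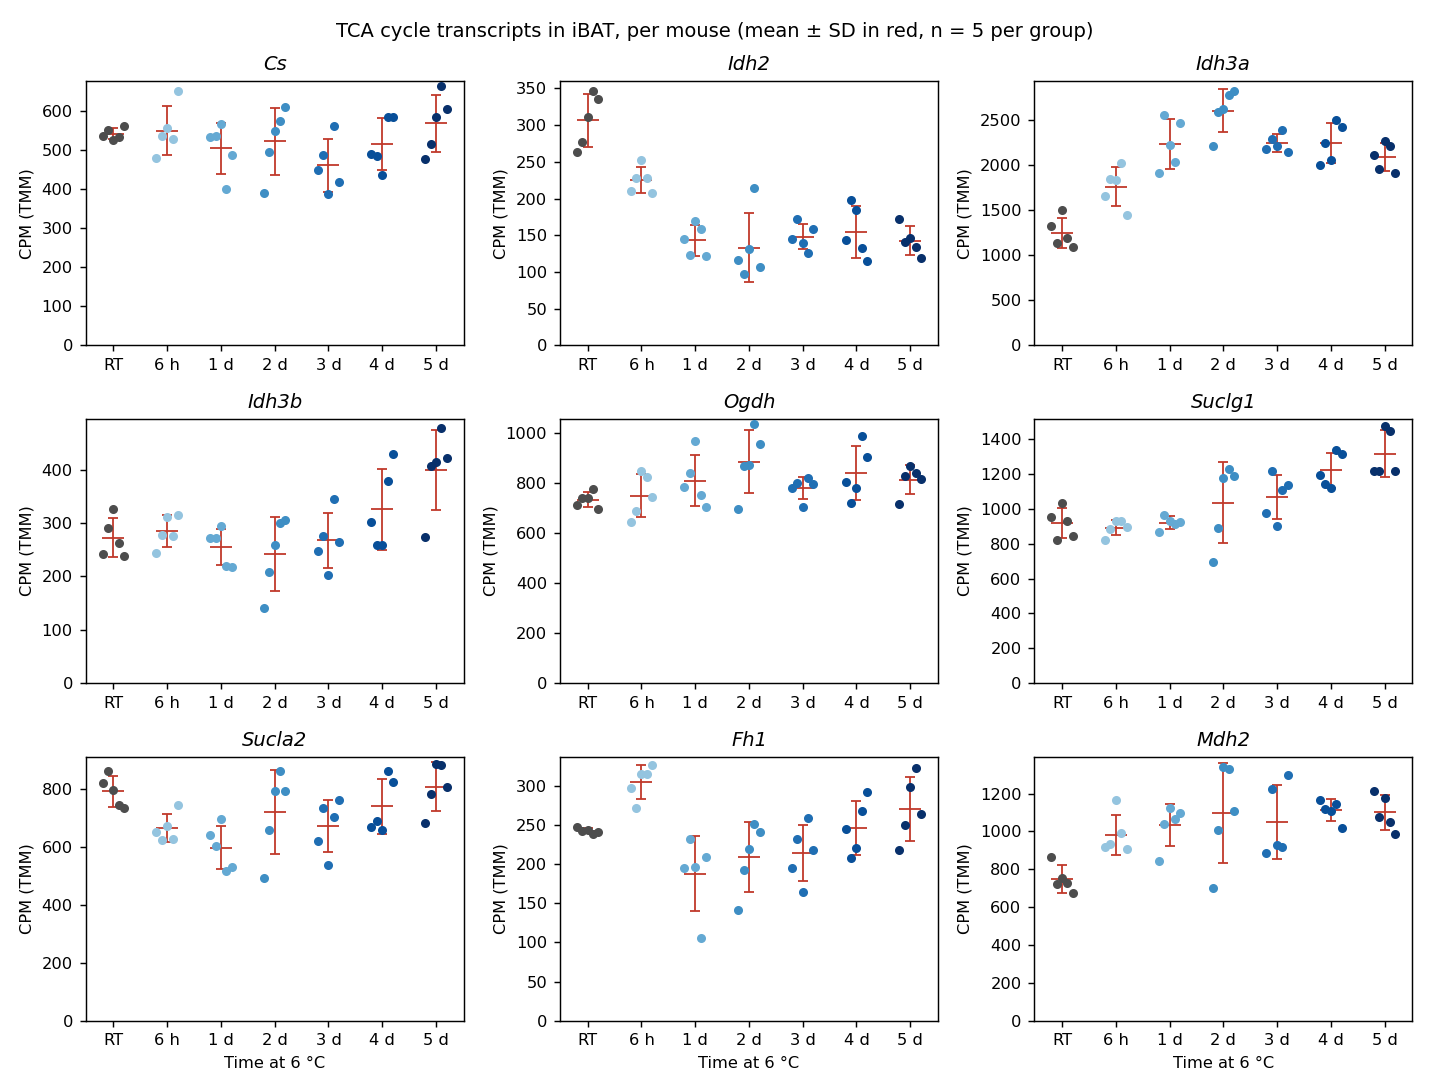
Levels of the 9 TCA cycle members in CPM (TMM-scaled) against time at 6 °C, with a point for each of 35 mice and the mean ± SD of each group of 5 in red. Idh2 points of all cold-exposed mice lie below those of RT mice, and Idh3a points lie above them from 1 day on. Those of Cs and Ogdh overlap with RT at each duration, with a wider spread in the cold.

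Each duration was then compared with RT in a fit of its own. All 9 members passed the filter on low counts in every comparison, and the 6 comparisons share the same 5 control mice. After 6 hours, 3 members were higher, beside 21.5% of all genes tested, and 2 were lower, beside 21%. After 1 day, 2 were higher (all genes 18.9%) and 2 lower (17.8%). The 2-day comparison called 2 members higher (all genes 16.4%) and 1 lower (14.7%), and the 3-day comparison likewise called 2 higher (18.3%) and 1 lower (15.5%). By 4 days there were 3 higher (19.4%) and 1 lower (18.6%), and by 5 days there were 4 higher (20.2%) and 1 lower (18.6%). Among 9 genes these counts lie near the shares of all genes, so the number of members called is not a result about the cycle. The median log2 fold change of the members was 0.01 after 6 hours, -0.09 after 1 day and 0.15 after 5 days, and that of all genes tested was -0.03, -0.02 and -0.02. What the comparisons did show was that members moved in opposite directions and at different times.

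Citrate synthase, encoded by Cs (chr10:128337734-128362479, plus strand, GRCm38), joins acetyl-CoA to oxaloacetate. Its level was 538, 552, 528, 534 and 564 CPM in the 5 RT mice, and group means lay between 462 ± 67.9 CPM (SD, n = 5) after 3 days and 570 ± 73.4 CPM after 5 days. The RT mice lay inside the range of the cold-exposed mice. No duration was called for Cs with TMM factors. The largest log2 fold change was -0.22 (95% interval -0.44 to -0.005) after 3 days, with an edgeR adjusted p of 0.107, or -0.30 (adjusted p = 0.0291) without replicate 4 of that group. The interval after 5 days was -0.15 to 0.28, which bounds the change rather than showing that there was none. Scaled by library size only, Cs was called lower after 1, 2 and 3 days (log2 -0.33, -0.30 and -0.37). The edgeR adjusted p was then 0.0183, 0.0213 and 0.0178, and 30.2%, 26.1% and 22.4% of all genes were lower.

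Idh3a (chr9:54586334-54604661, plus strand) encodes the catalytic subunit of NAD-dependent isocitrate dehydrogenase, an enzyme at which the cycle is controlled by ADP, calcium and NADH. Its transcript rose at every duration. RT mice had 1320, 1135, 1494, 1188 and 1090 CPM. After 6 hours the 5 mice had 1659, 1845, 1833, 2019 and 1444 CPM, and only the last of these lay inside the RT range. After 2 days the levels were 2213, 2585, 2617, 2777 and 2819 CPM, and after 5 days 2104, 1950, 2260, 2205 and 1907 CPM. From 1 day on every cold-exposed mouse exceeded every RT mouse.

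The fold over RT for Idh3a was 1.39 at 6 hours, 1.79 at 1 day and 2.08 at 2 days, and lay between 1.67 and 1.81 from 3 to 5 days. On the log2 scale the change was 0.48 ± 0.11 (SE) after 6 hours (edgeR adjusted p = 0.00184) and 1.05 ± 0.12 after 2 days (adjusted p = 1.2e-05). Between 6 hours and 1 day it rose by a further 0.35 ± 0.12 (adjusted p = 0.0443), a call that was lost when any of 7 mice was left out (replicates 1, 2, 3 and 5 of 6 hours and 2, 3 and 5 of 1 day), with adjusted p between 0.0666 and 0.108. Between 6 hours and 5 days the difference was 0.26 ± 0.11 and was not called (adjusted p = 0.066), but it was 0.31 (adjusted p = 0.042) without replicate 4 of 6 hours. The mean was highest after 2 days, and the ranges of the 1, 3, 4 and 5 day groups each overlapped with that of 2 days.

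Idh3b (chr2:130279309-130284547, minus strand) encodes a regulatory subunit of the same enzyme, and its course was different. RT mice had 243, 291, 326, 264 and 238 CPM. After 2 days the levels were 140, 208, 259, 301 and 305 CPM, and after 5 days 274, 407, 415, 479 and 422 CPM. Thus after 5 days 4 of 5 mice lay above all RT mice, and after 2 days the groups overlapped. Idh3b was called only after 5 days, when it rose 1.46-fold (log2 0.55 ± 0.13, adjusted p = 0.00323). It was also 0.50 ± 0.13 higher after 5 days than after 6 hours (adjusted p = 0.00343). The exons of Idh3b share 5 bases with those of Nop56 on the opposite strand, whose counts were 1875 over all libraries.

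The ratio of 2 transcripts within a library does not depend on how libraries are scaled to one another. For 5 pairs of enzyme subunits or related enzymes, the log2 ratio in each cold group was compared with RT by an exact two-sided permutation test over mice, giving 30 tests with Benjamini-Hochberg adjustment. The smallest p that 5 against 5 mice can give is 0.00794, and the smallest adjusted value here was 0.014. The log2 ratio of Idh3a to Idh3b was 2.44, 1.96, 2.19, 2.17 and 2.19 in RT mice and 3.98, 3.63, 3.34, 3.21 and 3.21 after 2 days, with no overlap. It differed from RT by 0.43 after 6 hours (permutation adjusted p = 0.0376), and in 8 of 10 tests that left out a mouse this call was lost, with adjusted p up to 0.0752. It differed by 0.94, 1.28, 0.89 and 0.62 at 1, 2, 3 and 4 days (each adjusted p = 0.014). After 5 days, with values of 2.94, 2.26, 2.44, 2.20 and 2.17, the difference was 0.21 and was not called (adjusted p = 0.228). The transcripts of these 2 subunits therefore changed unequally from 1 to 4 days. The third subunit gene, Idh3g, was called only after 3 days, when it was lower (log2 -0.26); it was singled out after its values were seen.

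**Figure D2:**
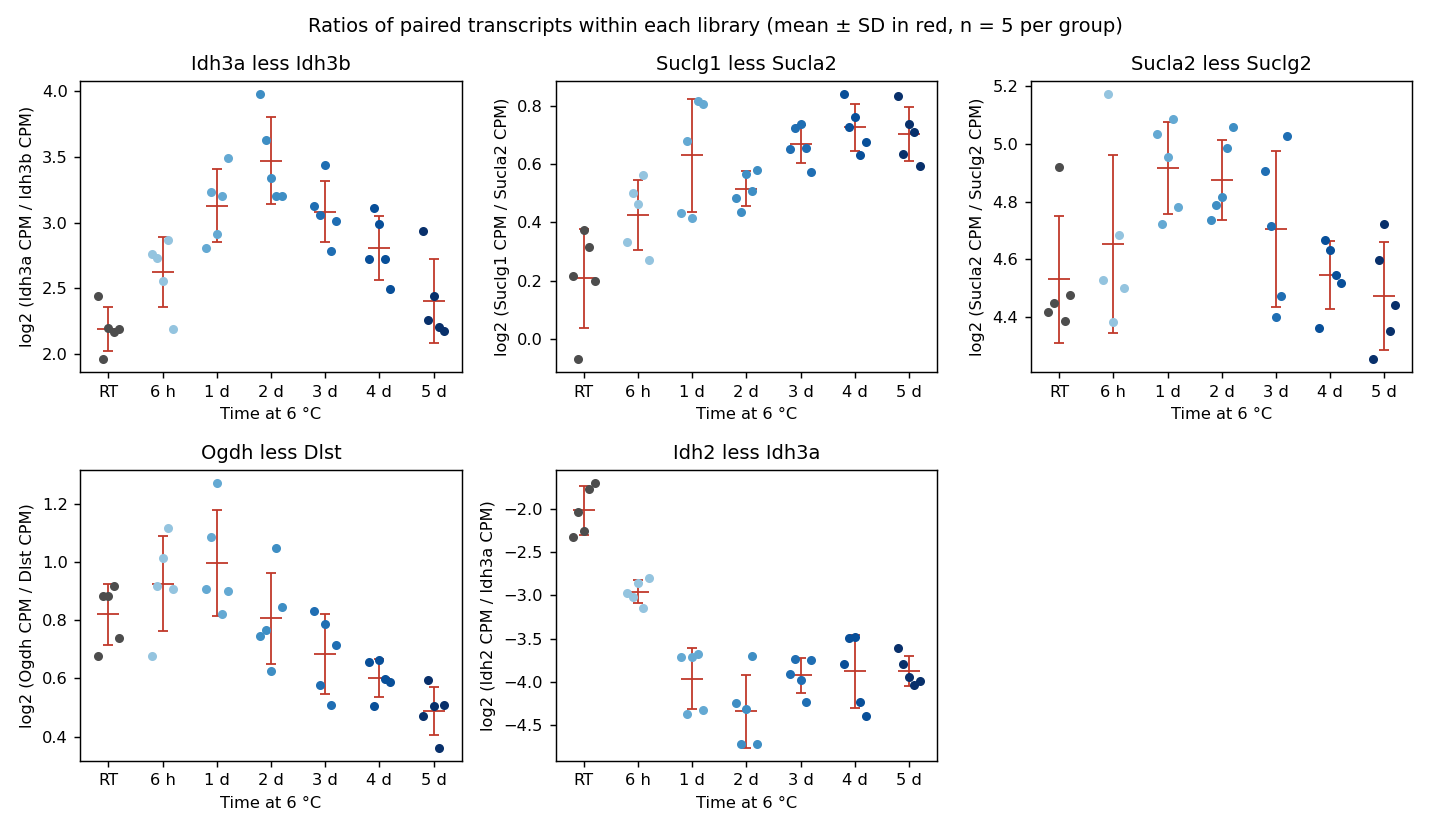
Log2 ratio of the CPM of paired transcripts within each library against time at 6 °C, with a point per mouse and the mean ± SD of each group of 5 in red. The ratio of Idh3a to Idh3b peaks after 2 days at a mean of 3.47 and is back near the RT mean of 2.19 after 5 days, while the ratio of Idh2 to Idh3a lies below that of every RT mouse at all durations.

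Idh2 (chr7:80094846-80115392, minus strand) encodes the mitochondrial NADP-dependent isocitrate dehydrogenase, which yields NADPH and can also run towards isocitrate. Its transcript fell at every duration. RT mice had 264, 277, 312, 347 and 335 CPM. After 6 hours the levels were 211, 228, 253, 228 and 207 CPM, after 1 day 145, 123, 169, 158 and 122 CPM, and at 5 days 172, 141, 147, 134 and 119 CPM. No cold-exposed mouse of any duration reached the lowest RT mouse, and the nearest was a mouse of 6 hours at 253 CPM.

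Idh2 stood at 0.724 of the RT level after 6 hours and at 0.467, 0.43, 0.486, 0.504 and 0.462 after 1, 2, 3, 4 and 5 days. The log2 change was -0.47 ± 0.10 after 6 hours (edgeR adjusted p = 0.00114) and -1.11 ± 0.12 after 5 days (adjusted p = 8.9e-07). The fall was in part later than 6 hours, since Idh2 was lower by a further -0.64 ± 0.11 after 1 day than after 6 hours (adjusted p = 6.6e-04). The log2 ratio of Idh2 to Idh3a went from a mean of -2.02 ± 0.28 in RT mice to -2.96 ± 0.13 after 6 hours and -4.34 ± 0.42 after 2 days, and all 30 cold-exposed mice lay below all RT mice (permutation adjusted p = 0.014 at each duration). Both genes were called on their own, in opposite directions, in these same mice, so the ratio is not separate support. Its tests also share the same RT mice.

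Idh2 was called lower at all 6 durations, and some markers of white adipocytes, of muscle and of brown adipocytes were also lower in the cold. The sum of the listed white adipocyte markers, Nnat among them, overlapped with RT after 6 hours and lay below every RT mouse from 1 day on. After 5 days 2 of the 5, Lep and Cfd, were called lower. The log2 changes of the 5 then had a median of -0.20 and reached up to 0.85. Muscle markers had a lower median in cold-exposed mice at each duration, and 6 of 10 were called lower after 5 days. Of these 10, 0 were called after 6 hours, 1 day and 4 days, and 1 was called lower after 2 days and after 3 days. The part of muscle and of white adipocytes was not tested.

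Ogdh (chr11:6291633-6356642, plus strand) encodes the subunit of the 2-oxoglutarate dehydrogenase complex that decarboxylates 2-oxoglutarate. RT mice had 710, 741, 740, 775 and 697 CPM, and group means in the cold lay between 749 ± 85.6 CPM after 6 hours and 885 ± 127 CPM after 2 days. After 2 days the mice had 695, 868, 870, 1037 and 954 CPM. The groups overlapped with RT at each duration, and no duration was called for Ogdh. The largest log2 change was 0.26 (95% interval 0.02 to 0.51) after 2 days, with an edgeR adjusted p of 0.096. It became 0.33 (adjusted p = 0.0139) when replicate 1 of that group was left out. After 4 days it was 0.19 (adjusted p = 0.127), or 0.27 (adjusted p = 0.0493) without replicate 2 of that group. Dlst, which encodes the E2 subunit of the same complex, rose by 0.41 after 4 days and 0.48 after 5 days. The log2 ratio of Ogdh to Dlst was accordingly lower than in RT by -0.22 after 4 days and -0.33 after 5 days, with all 5 mice below all controls at both durations (permutation adjusted p = 0.014).

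Succinyl-CoA ligase turns succinyl-CoA into succinate with formation of a nucleoside triphosphate. Suclg1 (chr6:73248382-73276911, plus strand) encodes the alpha subunit common to both forms of the enzyme, and rose late. RT mice had 954, 823, 1035, 930 and 844 CPM, and the mice of 1 day had 868, 967, 930, 914 and 927 CPM, inside the RT range. After 4 days the levels were 1197, 1143, 1117, 1338 and 1318 CPM, and after 5 days 1217, 1218, 1478, 1450 and 1218 CPM. All 10 mice of these 2 groups exceeded all RT mice. Suclg1 rose 1.33-fold after 4 days (log2 0.41 ± 0.09, adjusted p = 0.00271) and 1.43-fold after 5 days (log2 0.52 ± 0.10, adjusted p = 8.1e-04), and it was 0.58 ± 0.10 higher after 5 days than after 6 hours (adjusted p = 1.2e-04). After 3 days it was 0.23 (adjusted p = 0.11), or 0.29 (adjusted p = 0.0477) without replicate 3 of that group.

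Sucla2 (chr14:73525319-73596142, plus strand) encodes the beta subunit of the ADP-forming enzyme, and its transcript fell early. RT mice had 820, 863, 798, 747 and 735 CPM. The mice of 6 hours had 652, 624, 673, 629 and 744 CPM, of which 1 lay inside the RT range, and the mice of 1 day had 643, 603, 697, 519 and 530 CPM, all below it. The log2 change was -0.27 ± 0.09 after 6 hours (adjusted p = 0.0161) and -0.41 ± 0.11 after 1 day (adjusted p = 0.00614). After 5 days the levels of 682, 784, 886, 885 and 806 CPM spanned the RT range, and the log2 change was 0.02 with a 95% interval of -0.19 to 0.24. Between 6 hours and 5 days Sucla2 rose by 0.30 ± 0.10 (adjusted p = 0.0249), a call lost when any of 5 mice was left out (replicates 1, 2 and 4 of 6 hours and 3 and 4 of 5 days), with adjusted p between 0.053 and 0.066. That call was also lost with library size only (edgeR adjusted p = 0.0531), without the filter on low counts (0.0631) and with all 7 groups in a single fit (0.0636).

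The alpha subunit transcript thus gained on the beta subunit transcript. The log2 ratio of Suclg1 to Sucla2 was 0.22, -0.07, 0.37, 0.32 and 0.20 in RT mice, and 0.84, 0.73, 0.76, 0.63 and 0.68 after 4 days. It differed from RT by 0.22 after 6 hours, which was not called (permutation adjusted p = 0.0567) except without replicate 3 of RT or replicate 5 of 6 hours (adjusted p = 0.0454), and by 0.42, 0.31, 0.46, 0.52 and 0.50 after 1, 2, 3, 4 and 5 days (each adjusted p = 0.014). From 1 day on all cold-exposed mice exceeded all RT mice. The ratio of Sucla2 to Suclg2, the beta subunit of the GDP-forming enzyme, was higher by 0.39 after 1 day (adjusted p = 0.0376) and by 0.35 after 2 days (adjusted p = 0.0476), and differed by between -0.06 and 0.17 at the other durations, none of them called. Both calls were lost in most tests that left out a mouse, 7 of 10 and 9 of 10, with adjusted p up to 0.0752 and 0.0952.

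Fh1 (chr1:175600374-175625635, minus strand) encodes fumarase, which hydrates fumarate to malate. Its transcript rose by 6 hours and was lower again after 1 day. RT mice lay close together at 247, 242, 243, 239 and 241 CPM. After 6 hours the levels were 296, 272, 315, 315 and 326 CPM, all above RT, and after 1 day they were 195, 232, 197, 106 and 209 CPM, all below RT. Fh1 rose 1.24-fold after 6 hours (log2 0.31 ± 0.08, adjusted p = 0.00598). After 1 day it was at 0.774 of RT, but this was not called (log2 -0.37 ± 0.15, adjusted p = 0.0692). It was called in some alternatives, among them without replicate 2 of that group (log2 -0.45, adjusted p = 0.0415), without the filter on low counts (log2 -0.34, adjusted p = 0.0480) and with library size only (log2 -0.60, adjusted p = 0.00330). Compared directly, Fh1 was lower after 1 day than after 6 hours by -0.69 ± 0.15 (adjusted p = 0.00468), or by -0.54 without the mouse at 106 CPM (adjusted p = 0.00129). From 2 to 5 days the group means were 209, 214, 246 and 271 CPM, with no call.

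Mdh2 (chr5:135778480-135790398, plus strand) encodes the mitochondrial malate dehydrogenase, which also serves the malate-aspartate shuttle. Its transcript rose by 6 hours and was called higher at each later duration. RT mice had 867, 724, 756, 726 and 674 CPM. The levels were 919, 935, 1164, 990 and 907 CPM after 6 hours, 1167, 1119, 1110, 1146 and 1017 CPM after 4 days, and 1213, 1075, 1174, 1051 and 988 CPM after 5 days, all above every RT mouse. The lowest mouse of 1 day, at 844 CPM, lay inside the RT range, and so did the lowest of 2 days, where the levels ran from 701 to 1342 CPM. The fold over RT was 1.29 after 6 hours (log2 0.37 ± 0.10, adjusted p = 0.00494) and between 1.38 and 1.48 from 1 to 5 days, and each duration was called. Neither 1 day nor 5 days differed from 6 hours past the threshold (log2 0.08, 95% interval -0.14 to 0.31, and 0.18, 95% interval -0.04 to 0.39).

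Against 6 hours, 1 member was higher after 1 day (Idh3a; all genes 9.19%) and 2 were lower (Idh2 and Fh1; all genes 7.75%). After 5 days, 3 were higher than after 6 hours (Idh3b, Suclg1 and Sucla2; all genes 19%) and 1 was lower (Idh2; all genes 16.9%). These comparisons share the 5 mice of 6 hours with each other.

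**Figure D3:**
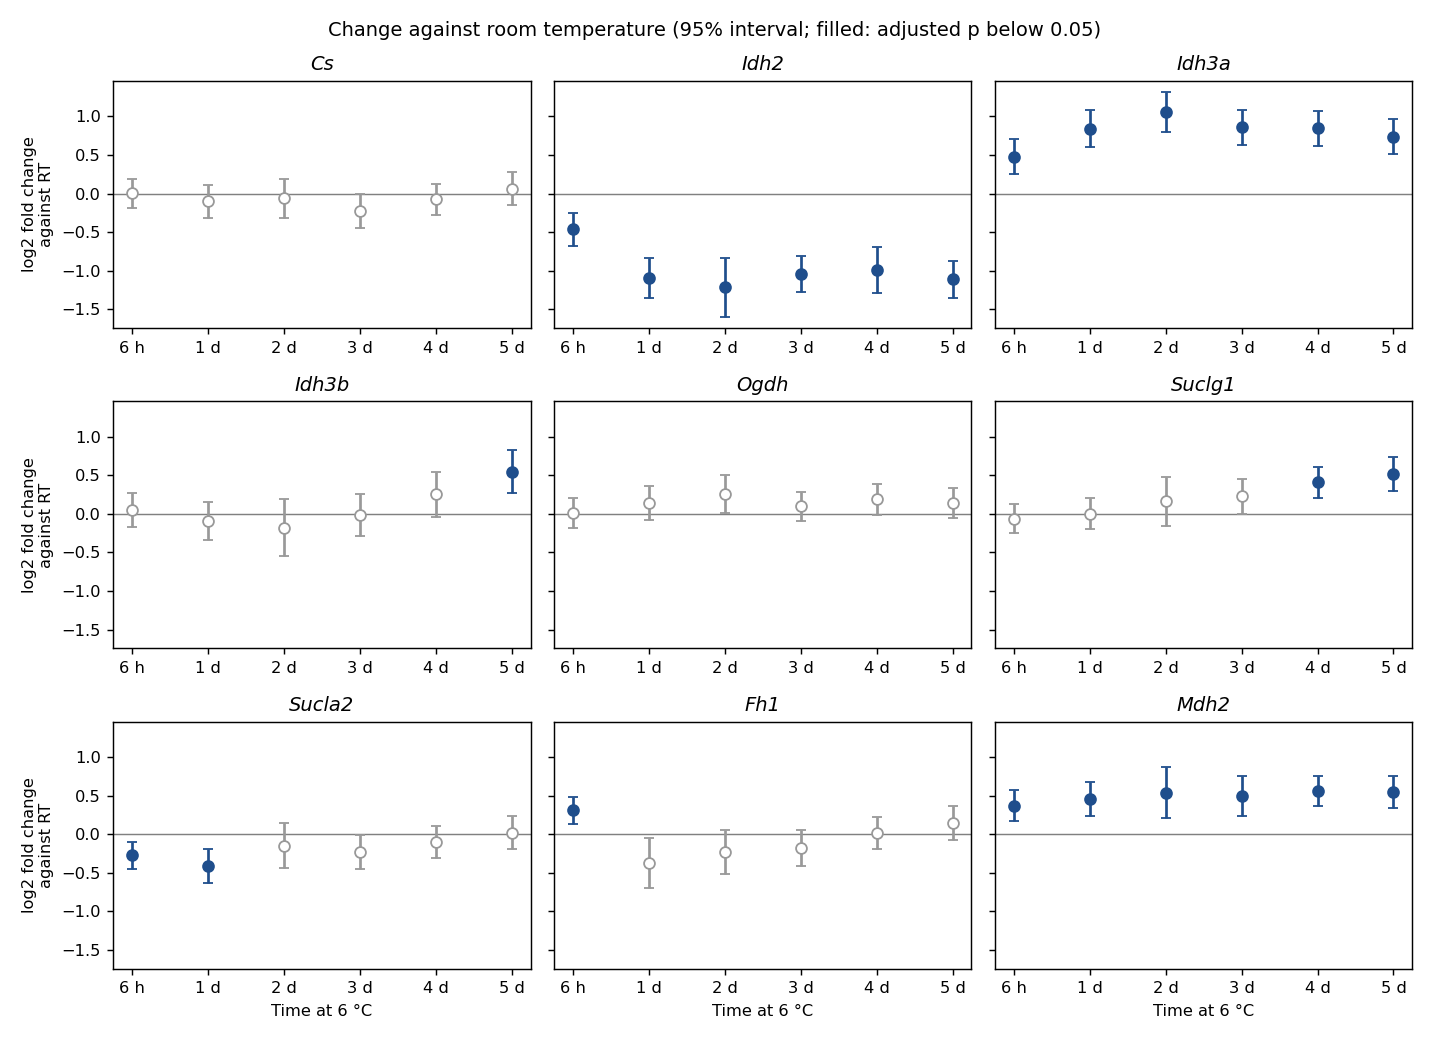
Log2 fold change against RT (edgeR) of each member by time at 6 °C, with 95% intervals, where filled points have an adjusted p below 0.05. Idh3a and Mdh2 are above 0 and Idh2 below 0 at all durations, Suclg1 and Idh3b are called late, and Sucla2 and Fh1 early.

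The calls of Idh2 and Idh3a against RT, and those of Suclg1 and Idh3b after 4 or 5 days, held under each of the 18 other settings tried per comparison. Scaling by library size alone, without TMM factors, put the median log2 fold change of all genes against RT at between -0.15 and -0.25, where it was between -0.01 and -0.03 with TMM, and under it Mdh2 was not called after 6 hours, 1 day or 2 days and Fh1 was not called after 6 hours. In the 6-hour comparison it called 12.7% of genes higher and 32.1% lower, where TMM gave 21.5% and 21%. Sucla2 after 6 hours was not called without the filter on low counts or with all 7 groups in a single fit, and Fh1 after 6 hours was not called in that single fit either.

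Another 9 genes of the cycle were Idh3g, Dlst, Dld, Mrps36, Suclg2 and the 4 succinate dehydrogenase subunits. Of these, 2 were called higher and 0 lower after 6 hours, and 3 higher and 0 lower after 5 days (at an unadjusted p below 0.05, 1 and 0 were lower). All genes tested gave 21.5% higher and 21% lower after 6 hours and 20.2% and 18.6% after 5 days, so the counts of higher genes lay near those shares. At the durations between, 1 or 2 were higher (all genes 16.4% to 19.4%) and between 0 and 2 lower (14.7% to 18.6%). Dld, the E3 subunit that the 2-oxoglutarate and pyruvate dehydrogenase complexes share, rose at every duration, by 0.25 on the log2 scale after 6 hours and 0.67 after 5 days (edgeR adjusted p = 3.2e-05). Mrps36, which encodes a small component of the 2-oxoglutarate dehydrogenase complex, rose by 0.99 after 5 days (adjusted p = 0.0164) from a mean of 2.69 CPM in RT mice. Sdhd, a membrane anchor subunit of succinate dehydrogenase, rose by 0.42 ± 0.15 after 6 hours (adjusted p = 0.0351) and by 0.82 ± 0.15 after 2 days (adjusted p = 6.4e-04). Its level after 1 day ran from 26.4 to 188 CPM and was not called. Between 6 hours and 1 day none of the 9 genes was called by edgeR (2 had an unadjusted p below 0.05), where all genes gave 9.19% higher and 7.75% lower. Between 6 hours and 5 days 5 were higher (all genes 19%) and 0 lower (16.9%).

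**Figure D4:**
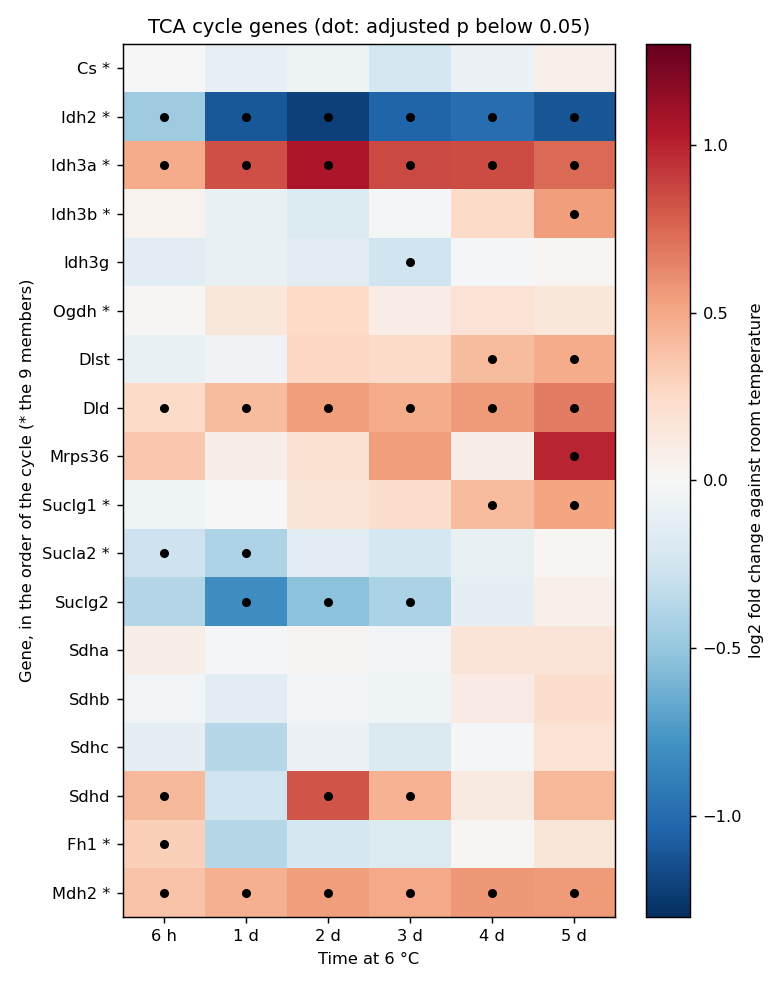
Log2 fold change against RT, as colour, for the 9 members (marked with an asterisk) and 9 other TCA cycle genes in the order of the reactions, by time at 6 °C, with a dot where the adjusted p was below 0.05. Idh2 is lower at all durations, next to Idh3a, which is higher at all durations, and Sdha, Sdhb and Sdhc carry no dot.

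Summed over the 9 members, the mean was 5801 ± 310 CPM in RT mice, 6415 ± 389 CPM after 6 hours, 7449 ± 1189 CPM after 2 days and 7506 ± 517 CPM after 5 days. The mean share of Idh3a in this sum went from 21.4% in RT mice to 35.3% after 2 days and 27.8% after 5 days. That of Idh2 went from 5.31% to 1.79% and 1.91%, and that of Sucla2 from 13.7% to 9.62% and 10.8%. A share also falls when the sum rises. The mean level of Sucla2 itself was 793 CPM in RT mice and 809 CPM after 5 days.

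Mice of the same group also differed among themselves, and most members then tended to move together, Idh2 less so. Replicate 1 of the 2-day group was the lowest of its group for 8 of 9 members, with a median deviation of -0.52 on the log2 scale from the group means. That library had 34.6% mitochondrial counts, 15.8% counts on the nuclear gene Gm42418 and a macrophage marker sum of 502 CPM, where the other mice of the group had between 86.0 and 288 CPM. Replicate 3 of the 3-day group and replicate 1 of the 5-day group were each the lowest of their group for 6 members, with 34.7% and 33.6% mitochondrial counts and macrophage sums of 461 and 314 CPM. Replicate 1 of the 3-day group had 35.0% mitochondrial counts and the highest macrophage sum of its group, 562 CPM. It was below the group mean for 8 members and the lowest for 1, with a median deviation of -0.09. Replicate 5 of the 5-day group had the highest macrophage sum of its group, 410 CPM. It was below the group mean for 5 members and the lowest for 3, with a median deviation of -0.02. Replicate 1 of the 5-day group was also the highest of its group for 2 members. In the 4-day group, replicates 1, 2 and 3 had macrophage sums of 381, 420 and 372 CPM. They were below the group mean for 7, 6 and 8 members. Replicates 4 and 5 had 88.6 and 96.3 CPM and were below it for 1 and 2 members. The part of these measures was not tested. Without replicate 1, the 2-day comparison gave 3 members higher, now with Ogdh (all genes 16.3%), and 1 lower (15.0%).

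**Figure D5:**
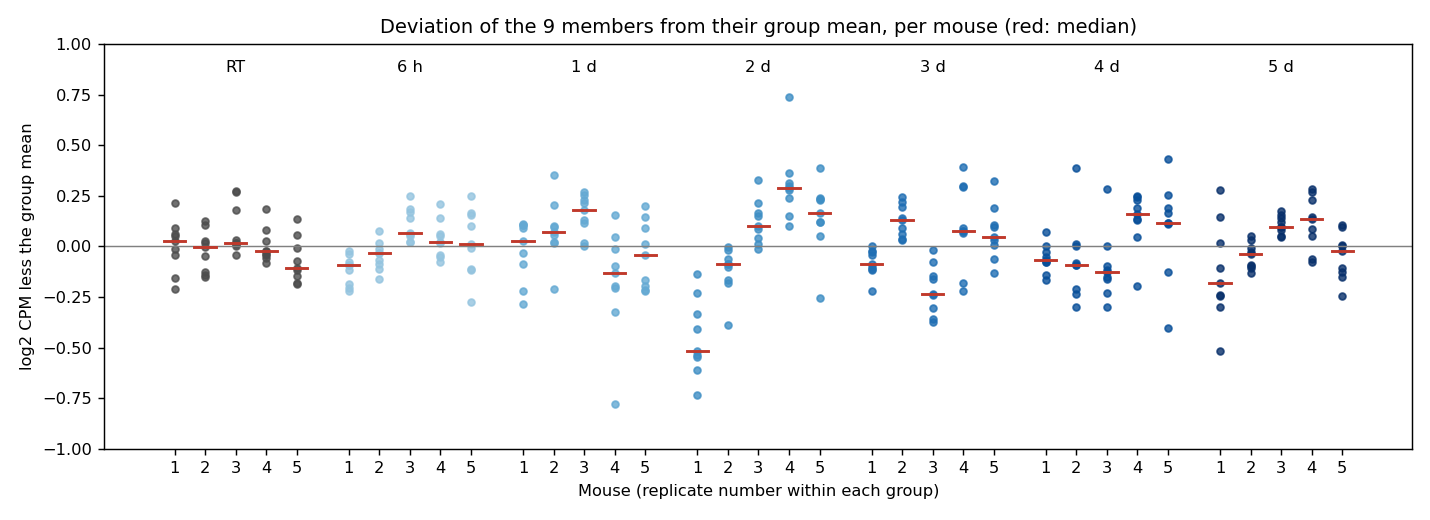
Deviation of each of the 9 members from its group mean (log2 CPM) for each mouse, with the median in red. Replicate 1 of the 2-day group has all 9 members below 0 and the lowest median of all 35 mice, -0.52.

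Over the 36 pairs of members, the median Pearson r of log2 CPM across the 35 libraries was 0.385, from -0.80 for Idh2 with Idh3a to 0.75 for Idh3b with Suclg1. After subtraction of group means the median was 0.489, from -0.18 for Cs with Idh2 to 0.87 for Idh3b with Sucla2. Without replicate 1 of the 2-day group that median was 0.415. With all 35 libraries, 32 of the 36 values after subtraction were above 0. Those below 0 all held Idh2, with Cs (-0.18), Fh1 (-0.16), Idh3b (-0.11) or Idh3a (-0.07). The r of Idh2 with Mdh2 was 0.42. These values describe libraries that share scaling and cell makeup. Of 1865 genes with a mean of at least 50 CPM, those most like the mean profile of the members were Uqcrq (r = 0.914), Atp5c1 (r = 0.879), Sdhb (r = 0.866), Ndufb1-ps (r = 0.863) and Sdha (r = 0.849). Uqcrq, Sdha and Sdhb encode respiratory chain subunits and Atp5c1 a subunit of ATP synthase. Single members were most like other genes. The nearest was Atp5a1 for Cs (r = 0.876), Enpp2 for Idh2 (r = 0.903), Nme1 for Idh3a (r = 0.924), Cox7b for Idh3b (r = 0.924), Rmdn1 for Ogdh (r = 0.835), Uqcrc2 for Suclg1 (r = 0.923), Sdhc for Sucla2 (r = 0.882), Ndufb1-ps for Fh1 (r = 0.870) and Emc6 for Mdh2 (r = 0.861). After subtraction of group means the r of Idh2 with Enpp2 was 0.602 and that of Idh3a with Nme1 was 0.642, whereas that of Idh3b with Cox7b was 0.935.

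Promoter sequences of the members were searched for 4 motifs of factors known to act on mitochondrial or cold-responsive genes, and the matches are shown here because the same motif stood before a member that rose and before one that was not called. The RefSeq windows (GRCm38.p6) ran from 250 bases before to 50 bases after a transcript start, and 8 members had 13 of them, whereas Idh3a had none in the table. Both strands were searched for exact matches. TCAAGGTCA, bound by estrogen-related receptors, was in 0.423% of all 32851 windows and CCGGAAGT, bound by ETS factors, in 3.89%, and neither was in a window of a member. TGACGTCA, the cyclic AMP response element bound by CREB, was in 1.79% of all windows, in that of Mdh2 and in 3 of the 6 of Ogdh. CGCATGCG, bound by NRF1, was in 1.87% of all windows and in 2 of the 6 of Ogdh. The matches, in capitals with their flanks in lower case, lay at chr5:135778512-135778539 in Mdh2, and at chr11:6291536-6291563 and chr11:6292534-6292561 in Ogdh, on the plus strand of each gene.
Mdh2, CREB motif: gagagaatcgTGACGTCAggcctcgctc
Ogdh, CREB motif: cccaattctgTGACGTCAcgtcacgccc
Ogdh, NRF1 motif: aggtgttgtgCGCATGCGtaactcaact
The Mdh2 match lies 127 bases before the RefSeq start, inside the gene as GENCODE annotates it. The CREB match of Ogdh lies upstream of the annotated gene, in 3 windows that overlap one another, and the NRF1 match lies inside the gene, before a later start. A match is a run of letters and was not tested for binding.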

How the data were processed

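iBAT RNA of 35 mice was profiled with the QuantSeq 3' FWD kit, which reads the 3' end of polyadenylated transcripts, so counts do not scale with transcript length. Levels were not compared between genes, except in ratios, sums and shares, which were set against the same measure in other groups. Per the labels, reads were aligned with STAR 2.6.1d to GRCm38 and counted with HTSeq 0.11.2. The strand setting is not given in the sources used here. The authors deposited the counts per gene as whole numbers without normalization, and 267 of 55421 rows carried no gene symbol. Columns were assigned by duration and replicate number.

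CPM values, used for levels and ratios, were computed with TMM factors over all libraries (log2 with a prior count of 2). Each pair of groups was fitted with edgeR 4.0.16 in R 4.3.3 (TMM, filterByExpr, quasi-likelihood test, Benjamini-Hochberg adjustment over all genes, threshold 0.05). Ratios used exact permutation tests in Python 3.11.15 (scipy 1.17.1). The fits were tested on simulated data. Alternatives were RLE factors, library size only, removal of mitochondrial genes and Gm42418, DESeq2 1.42.0, no filter, a mean of at least 10 counts, all 7 groups in a single fit, a replicate block, leaving out each mouse, and a prior count of 0.5 for ratios. No member had fewer than 370 counts in any library.

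The rule for members takes gene symbols only, but members, gene lists and marker lists were chosen with earlier results of these data known. All members are named, and 1 other gene of the cycle is not reported here. Of other lists of genes in and around the cycle, genes called after 6 hours or 5 days are named, at most 4 a list by smallest adjusted p. Cell type markers are given mainly as sums and counts, with few of them named. Gene coordinates are from GENCODE M21 (GRCm38), and promoters from RefSeq.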

Additional observations from a re-analysis of the deposited data

How the results depend on the processing

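The test of any difference among groups called 7 or 8 members under the alternatives run for it (RLE factors, library size only, without mitochondrial genes and Gm42418, the replicate block and leaving out each mouse). Idh2 and Idh3a were called against RT under all those run per comparison. Scaling by library size only changed most. It gave 1 member higher after 6 hours, 1 day and 2 days, beside 12.7%, 10.7% and 8.76% of all genes. It gave 5 lower after 1 day and 2 days (all genes 30.2% and 26.1%), 4 after 3 days (22.4%) and 2 after 4 days (24.2%). Under it log2 changes turned to -0.19 for Cs, -0.14 for Idh3b and -0.18 for Ogdh after 6 hours, to -0.080 for Ogdh and -0.21 for Suclg1 after 1 day, to -0.083 for Suclg1 after 2 days, to -0.041 for Ogdh after 3 days and to -0.13 for Fh1 after 4 days. After 5 days they turned to -0.17 for Cs, -0.090 for Ogdh, -0.21 for Sucla2 and -0.089 for Fh1. Without mitochondrial genes and Gm42418, Cs after 6 hours was -0.0031 and Suclg1 after 1 day -0.0021. Without the filter 1 member was lower after 6 hours (all genes 8.75%), and 0 rose between 6 hours and 1 day (all genes 3.35%). With all 7 groups in a single fit 1 was lower after 6 hours (all genes 17.3%). The cause of these shifts was not tested. RLE factors and a mean of at least 10 counts changed no call, and DESeq2 added 2 (Ogdh after 2 days, and Idh3a after 5 days against 6 hours). The likeness by library size only kept Atp5c1 and Sdhb among the 5 nearest genes and 7 of the 9 single nearest genes.

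Replicate numbers did not pair the mice (r between same-numbered mice from -0.239 to 0.144 over 8 comparisons). With the replicate block, 0 members were higher after 1 day than after 6 hours (all genes 7.33%). Cs after 6 hours was then -0.0058 and Fh1 after 1 day was called (log2 -0.41).

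Leaving out each mouse gave 1 to 2 members lower after 3 days (all genes 12.4% to 14.5%). It gave 0 to 1 higher after 1 day than after 6 hours (all genes 6.51% to 8.38%). Log2 changes that turned sign then ran from -0.055 to 0.057 (Cs, 6 hours), -0.024 to 0.073 (Ogdh, 6 hours), -0.032 to 0.054 (Suclg1, 1 day), -0.12 to 0.022 (Cs, 2 days), -0.12 to 0.071 (Idh3b, 3 days), -0.031 to 0.098 (Fh1, 4 days) and -0.0029 to 0.088 (Sucla2, 5 days). Ratios that turned ran from -0.0067 to 0.22, -0.020 to 0.11 and -0.12 to 0.040 for Sucla2 to Suclg2 after 6 hours, 4 days and 5 days, and from -0.073 to 0.032 for Ogdh to Dlst after 2 days. The ratio of Idh3a to Idh3b after 6 hours lost its call in 8 of 10 such tests. In all, 43 of 72 log2 changes kept direction and side under library size only, against 72 of 72 under RLE factors.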

Other observations

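Genes around the cycle were summarized as lists. Of 6 cytosolic counterparts, 1 was called higher and 3 lower after 6 hours, and 4 higher and 1 lower after 5 days, where all genes tested gave 21.5% higher and 21% lower after 6 hours and 20.2% and 18.6% after 5 days. Lists this short are described by their counts only. Got1, the cytosolic aspartate aminotransferase of the malate-aspartate shuttle, rose from 11.9 ± 3.65 CPM (SD, n = 5) in RT mice to 104 ± 17.8 CPM after 6 hours (log2 3.11, edgeR adjusted p = 4.9e-10) and was at 88.5 ± 6.91 CPM after 5 days. Idh1, the cytosolic NADP-dependent isocitrate dehydrogenase, fell by 1.19 on the log2 scale after 6 hours (adjusted p = 2.4e-07) and stood at -0.02 after 5 days, where Idh2 was -1.11. The difference between these time courses was not tested. Aco1 fell by 1.15 after 6 hours, and Me1, the cytosolic malic enzyme, rose by 1.86 after 5 days (adjusted p = 5.2e-07).

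Of 11 genes at which carbon enters or leaves the cycle, 1 was higher and 2 lower after 6 hours, and 7 higher and 4 lower after 5 days, beside the same shares of all genes. Pdhb and Pdhx, of the pyruvate dehydrogenase complex, rose by 1.00 and 0.55 after 5 days, and Glud1, glutamate dehydrogenase, fell by 0.96 (adjusted p = 8.1e-06). Slc25a11, the carrier that exchanges 2-oxoglutarate for malate, fell by 0.54 after 6 hours (adjusted p = 2.1e-04). Of the 4 succinate dehydrogenase assembly factors 2 were lower at 6 hours, whereas 3 were higher at 5 days, beside the same shares. Of the enzyme itself, Sdhd was called higher after 6 hours, and Sdha, Sdhb and Sdhc were not called at either time. Sdhaf1 fell by 0.71 after 6 hours, and Sdhaf2, Sdhaf3 and Sdhaf4 rose by 0.47, 0.86 and 0.59 after 5 days.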
